A study of Homo sapiens with 6 samples.

Results

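The genes described here encode the cereblon ubiquitin ligase and the proteins that immunomodulatory drugs make it destroy. They were chosen by name: the ligase subunits CRBN, DDB1, CUL4A, CUL4B and RBX1, and the drug-dependent substrates (neosubstrates) IKZF1, IKZF2, IKZF3, CSNK1A1 and ZFP91. All 10 symbols were found among the 21850 genes of the counts table, and all 10 were among the 13971 genes that passed the filter on low counts and were tested. RNA was sequenced from MM.1S, a human multiple myeloma cell line, at day 3 of a lentiviral hairpin experiment. The shNT group (3 libraries, labelled wild type) carried a scramble hairpin, and the shPRKCN group (3 libraries, labelled PRKCN knockdown) carried a hairpin against PRKCN, a serine/threonine kinase of the protein kinase D family that is listed as PRKD3. The hairpins were expressed constitutively from a vector with a GFP marker, and the names of the 3 shPRKCN libraries share a single construct code, so effects of that hairpin on other transcripts cannot be told apart from those of PRKCN loss. No library was treated with an immunomodulatory drug.

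Cereblon is the substrate receptor of a cullin-RING ligase: it docks on the adaptor DDB1, which hangs on the scaffold CUL4A or its paralog CUL4B, and RBX1 at the other end of the cullin recruits the ubiquitin-conjugating enzyme. Lenalidomide and its relatives fill a pocket of cereblon and create a surface that captures a hairpin loop with a glycine at its tip, the degron, in proteins the ligase would otherwise leave alone. Loss of Ikaros (IKZF1) and Aiolos (IKZF3) is the step by which these drugs act on myeloma cells. The study also tested PRKCN in cells exposed to lenalidomide. The comparison below asks whether the transcripts of this drug's machinery differed between shPRKCN and shNT cells.

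The degron is what the neosubstrates have in common, and its coding sequence is shown because it separates members that otherwise belong to different families. Each line gives 23 codons of the GENCODE release 29 principal transcript (GRCh38), 5′ to 3′ on the coding strand, with the codon of the tip glycine in capitals.
IKZF1: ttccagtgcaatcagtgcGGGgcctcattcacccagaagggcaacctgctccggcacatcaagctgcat
IKZF3: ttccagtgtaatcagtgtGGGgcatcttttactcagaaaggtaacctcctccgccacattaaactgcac
IKZF2: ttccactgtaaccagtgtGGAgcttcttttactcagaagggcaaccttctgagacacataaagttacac
ZFP91: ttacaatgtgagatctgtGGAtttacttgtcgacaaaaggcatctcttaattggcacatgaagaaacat
CSNK1A1: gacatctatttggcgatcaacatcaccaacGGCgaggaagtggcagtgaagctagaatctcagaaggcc

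The IKZF1 stretch lay in exon 5 at chr7:50382551-50382619 (plus strand), the IKZF3 stretch in exon 5 at chr17:39791504-39791572 (minus strand) and the IKZF2 stretch in exon 6 at chr2:213049801-213049869 (minus strand). The ZFP91 stretch ran over exons 10 and 11 at chr11:58616811-58617259 (plus strand), and the CSNK1A1 stretch over exons 1 and 2 at chr5:149550149-149550877 (minus strand). In the 4 zinc finger proteins the glycine stood in the pattern Cys-x-x-Cys-Gly, at residue 151 of IKZF1, 152 of IKZF3, 146 of IKZF2 and 406 of ZFP91. CSNK1A1, a kinase with no zinc finger, presented glycine 40 in a loop of Asn-Gly-Glu-Glu. IKZF1 and IKZF3 shared 56 of 69 bases and encoded the same residue at all 23 positions. IKZF1 and IKZF2 shared 52 of 69 bases and 22 of 23 residues, the difference being Q146H, counted from the first methionine of IKZF1 with the IKZF1 residue first. IKZF2 (Helios) is only weakly degraded with the drugs in clinical use. ZFP91 matched IKZF1 at 34 of 69 bases and 10 of 23 residues. Over these 69 bases, the 3 Ikaros family members differed from each other by 13 to 17 bases.

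The knockdown was checked first. PRKD3 stood at 1262 ± 41.7 CPM (counts scaled to the library total with TMM factors; mean ± SD, n = 3) in shNT and 517 ± 23.4 CPM in shPRKCN libraries, a log2 fold change of −1.29 (adjusted p = 8.2e-43, edgeR quasi-likelihood test with Benjamini-Hochberg adjustment over all tested genes, as for each adjusted p that follows). The paralogs PRKD2 and PRKD1 had log2 fold changes of −0.19 (adjusted p = 5.2e-05) and −0.30 (adjusted p = 0.045). Library totals ran from 35625564 to 37730003 counts. Library identity was checked on 8 plasma cell markers, all detected and summing to 8578 to 8717 CPM in shNT and 7747 to 7874 CPM in shPRKCN libraries. Of these, TNFRSF17, XBP1 and SLAMF7 were lower by both limits used below (37.5% of the 8, against 16.7% of all tested genes called). Of 14 markers of other cells, 11 were listed, and 9 of them summed to 1.04 to 2.52 CPM in shNT and 0.830 to 1.87 CPM in shPRKCN libraries. The remaining markers were CD3E, at 10.9 ± 0.493 against 28.8 ± 2.03 CPM, and HBB, at 3.17 ± 0.884 against 1.00 ± 0.0914 CPM. With these, the 11 markers summed to 13.8 to 17.1 CPM in shNT and 29.7 to 33.3 CPM in shPRKCN libraries. Of the 5 that were tested, 1 was higher and 1 lower by both limits (40%, against 16.7% of all tested genes called). CD3D, the partner of CD3E in the T cell receptor complex, was at 0.0183 CPM in shNT and 0 in shPRKCN libraries.

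Genes were called where the adjusted p was under 0.05 and the absolute log2 fold change exceeded 0.58. None of the 10 members met both limits, whereas 16.7% of all tested genes did. The count was 0 with edgeR, DESeq2 and limma alike. An unadjusted edgeR p under 0.05 was found for 5 of 10 members and for 8158 of the 13971 tested genes. With the adjusted p alone, 5 of 10 members passed (54.2% of all tested genes). Of these, 4 were higher in shPRKCN cells (26.5% of all tested genes), namely CUL4A, DDB1, IKZF3 and IKZF1, and 1 was lower (27.8%), namely RBX1. These same 5 were the members whose libraries did not overlap between groups (58.8% of all tested genes). The median log2 fold change was −0.02 over the members and 0.0012 over all tested genes, and the median absolute value was 0.16 against 0.25. With 3 libraries a group, an exact permutation test of a single gene cannot go below p = 0.1 (2-sided), and it gave that value for each of these 5 genes. Nothing in the labels says that the libraries came from separate cultures, so the p-values measure the spread between these libraries, which may be technical. In bulk RNA, fewer cells of a kind and less RNA per cell cannot be told apart.

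**Figure D1:**
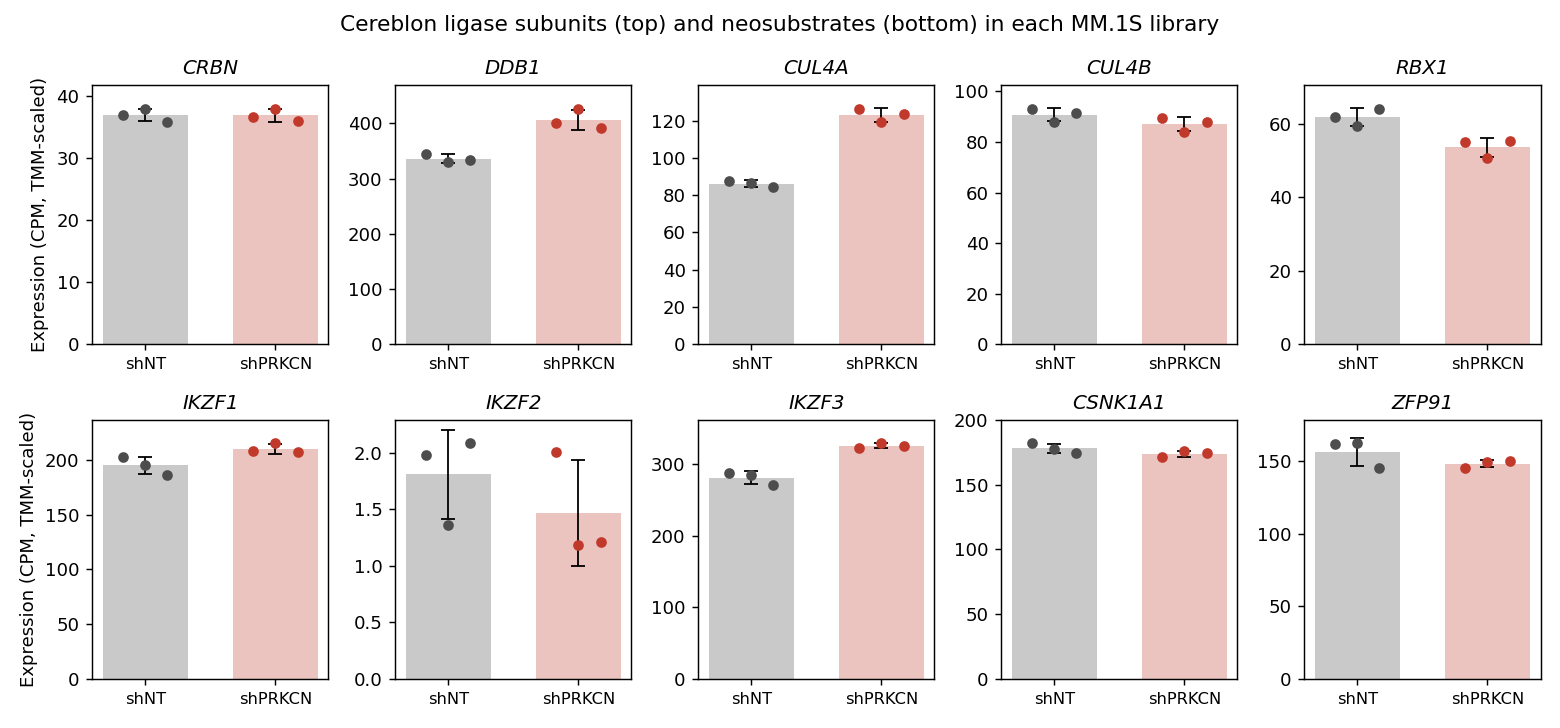
Expression of each member in CPM (vertical axis, starting at 0, with its own scale in each panel) in the 3 shNT and 3 shPRKCN libraries. Points are libraries, bars are means and whiskers are SD; CUL4A, DDB1, IKZF3 and IKZF1 sit higher and RBX1 lower in shPRKCN without overlap, and CRBN covers the same range in both groups.

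CRBN, the receptor that the drugs bind, was expressed at the same level in both groups within the spread. It lies on chromosome 3 (3144628-3179727, minus strand, GENCODE release 29 on GRCh38, as for the other loci). Its level was 37.0, 38.0 and 35.9 CPM in shNT libraries 1 to 3 and 36.7, 38.0 and 36.0 CPM in shPRKCN libraries 1 to 3. The groups covered nearly the same range, and their means were 36.9 ± 1.04 and 36.9 ± 1.01 CPM. The log2 fold change was −0.0021 (SE 0.055, adjusted p = 0.98), with a 95% interval of −0.11 to 0.11, which corresponds to a change between −7.49% and 7.77%. Of all tested genes, 99.5% had a larger absolute log2 fold change. That interval rests on the spread between these libraries, at counts of 1306 to 1413 a library, and does not bound differences between cultures. TRNT1, on the opposite strand, shares 7.37% of the annotated exonic bases of CRBN, and since the strand setting of the counting is not given in the sources used here, reads of this stretch cannot be assigned with certainty. TRNT1 itself had 342 to 486 counts a library and a log2 fold change of 0.22 (adjusted p = 0.062).

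DDB1, the adaptor that carries cereblon and all other CUL4 receptors, rose by 20.9%. It is encoded on chromosome 11 (61299451-61342596, minus strand). The shNT libraries held 345, 330 and 333 CPM and the shPRKCN libraries 401, 427 and 391 CPM. All shPRKCN libraries were above all shNT libraries, with a log2 fold change of 0.27 (SE 0.035, 95% interval 0.20 to 0.34, adjusted p = 3.7e-10). A larger absolute change was found for 45.9% of all tested genes. DDB1 was the most abundant member per length, at 78.7 ± 1.75 FPKM (counts scaled to gene length and library total) in shNT and 96.4 ± 3.35 FPKM in shPRKCN cells.

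The scaffold paralogs CUL4A and CUL4B differed in their response. CUL4A, on chromosome 13 (113208193-113267108, plus strand), stood at 87.9, 86.8 and 84.2 CPM in shNT and 127, 119 and 123 CPM in shPRKCN libraries. This was the largest change among the members that passed the test, a rise of 42.7% with a log2 fold change of 0.51 (SE 0.041, adjusted p = 1.0e-17). Its 95% interval, 0.43 to 0.59, reached just past the fold limit of 0.58, and 23.9% of all tested genes had a larger absolute change. CUL4B, on chromosome X (120524609-120575794, minus strand), stood at 93.2, 87.9 and 91.5 CPM in shNT and 89.6, 83.9 and 87.8 CPM in shPRKCN libraries. The CUL4B groups overlapped, and the log2 fold change was −0.06 (SE 0.043, 95% interval −0.15 to 0.02, adjusted p = 0.23). PCID2, on the opposite strand, shares 5.55% of the exonic bases of CUL4A and had a log2 fold change of 0.13 (adjusted p = 0.015).

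Per length, the order of the paralogs turned. In shNT cells CUL4B was the more abundant scaffold transcript (14.3 against 11.1 FPKM), and in shPRKCN cells CUL4A was (16.0 against 13.9 FPKM). The ratio of CUL4A to CUL4B FPKM was 0.770, 0.806 and 0.752 in shNT libraries and 1.15, 1.16 and 1.15 in shPRKCN libraries. CUL4A thus made up 43.7% ± 0.880 of the summed CUL4 FPKM in shNT and 53.6% ± 0.127 in shPRKCN cells (n = 3 each), and the groups did not overlap. The ratio's place relative to 1 and the share depend on the gene lengths used, 7741 bases for CUL4A and 6324 for CUL4B. The relative change of the ratio between groups does not. Per longest coding GENCODE transcript, the ratio was 0.822 ± 0.0295 in shNT and 1.22 ± 0.00627 in shPRKCN cells, so the order turned there too. That length was chosen after seeing the data.

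RBX1, the RING subunit that binds the ubiquitin-conjugating enzyme, was the single member lower by adjusted p, with a fall of 13.4%. It is encoded on chromosome 22 (40951347-40973309, plus strand). Its level was 61.9, 59.4 and 64.1 CPM in shNT and 54.9, 50.6 and 55.1 CPM in shPRKCN libraries. The groups did not overlap, and the log2 fold change was −0.21 (SE 0.049, 95% interval −0.30 to −0.11, adjusted p = 2.4e-04). A larger absolute change was found for 56.1% of all tested genes. The subunits of the ligase thus moved in different directions: the FPKM ratio of RBX1 to DDB1 was 0.667 ± 0.0267 in shNT and 0.480 ± 0.0433 in shPRKCN cells, and the ratio of DDB1 to CRBN was 8.32 ± 0.324 and 10.1 ± 0.179 (n = 3 each, no overlap in either ratio). Per longest coding GENCODE transcript, a length chosen after seeing the data, DDB1 to CRBN was 4.49 ± 0.175 and 5.43 ± 0.0969.

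**Figure D2:**
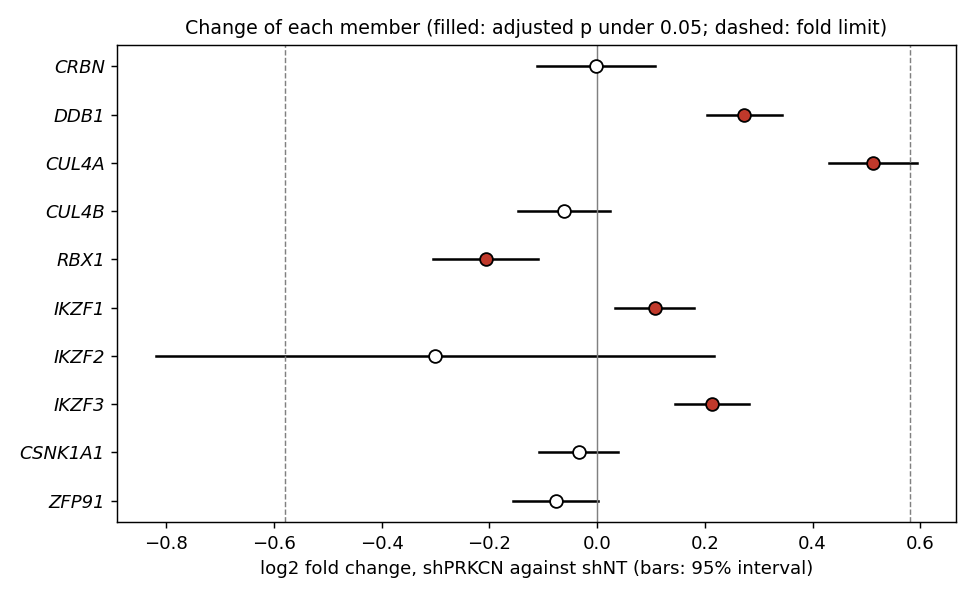
Log2 fold change of each member, shPRKCN against shNT (horizontal axis), with its 95% interval as a bar; filled points had an adjusted p under 0.05 and dashed lines mark the fold limit of 0.58. All 10 estimates lie inside the limit, and the intervals of CUL4A (upper end 0.59) and IKZF2 (lower end −0.82) extend beyond it.

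Among the neosubstrates, the transcripts of both drug targets in myeloma were slightly higher in shPRKCN cells. IKZF1 (Ikaros, a zinc finger transcription factor of lymphoid cells; chromosome 7, 50304068-50405101, plus strand) stood at 203, 196 and 186 CPM in shNT and 208, 215 and 207 CPM in shPRKCN libraries. The libraries did not overlap, but the gap between the highest shNT and the lowest shPRKCN library was narrow. The log2 fold change was 0.11 (SE 0.037, 95% interval 0.03 to 0.18, adjusted p = 0.010), a rise of 7.73%. A larger absolute change was found for 75.0% of all tested genes. Without shNT library 3, the lowest of all, the log2 fold change was 0.076 with an adjusted p of 0.093. Passing the adjusted p limit thus rests on that library.

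IKZF3 (Aiolos, the Ikaros paralog of late B cells and plasma cells; chromosome 17, 39757715-39864188, minus strand) rose by 15.9%. It stood at 288, 285 and 271 CPM in shNT and 322, 329 and 326 CPM in shPRKCN libraries, without overlap. The log2 fold change was 0.21 (SE 0.034, 95% interval 0.14 to 0.28, adjusted p = 2.3e-07). A larger absolute change was found for 55.1% of all tested genes. Relative to their receptor, both substrate transcripts were higher: the FPKM ratio of IKZF3 to CRBN was 2.91 ± 0.0606 in shNT and 3.38 ± 0.0723 in shPRKCN cells, and that of IKZF1 to CRBN was 1.09 ± 0.0359 and 1.17 ± 0.00999. Their size depends on the lengths: per longest coding transcript, IKZF3 to CRBN was 1.73 ± 0.0360 and 2.01 ± 0.0430, and IKZF1 to CRBN was 1.86 ± 0.0614 and 2.01 ± 0.0171, so that IKZF3 was no longer the higher of the pair in shNT cells. The relative change of each ratio between groups does not depend on the lengths. These are RNA ratios, and the proteins were not measured here.

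IKZF2 (Helios, an Ikaros paralog of T cells; chromosome 2, 212999691-213152427, minus strand) was barely detected. Its counts were 70, 50 and 78 in shNT and 75, 44 and 46 in shPRKCN libraries, or 1.81 ± 0.392 and 1.47 ± 0.469 CPM. The groups overlapped, and at this depth the log2 fold change of −0.30 (SE 0.26, adjusted p = 0.34) had a 95% interval from −0.82 to 0.22, wide enough to hold a loss past the fold limit.

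The neosubstrates outside the Ikaros family missed the adjusted p limit. CSNK1A1 (casein kinase 1 alpha, a kinase of the beta-catenin destruction complex; chromosome 5, 149492197-149551552, minus strand) stood at 182, 177 and 174 CPM in shNT and 171, 176 and 174 CPM in shPRKCN libraries. Its groups overlapped, with a log2 fold change of −0.03 (SE 0.037, 95% interval −0.11 to 0.04, adjusted p = 0.45). ZFP91 (a zinc finger protein with ubiquitin ligase activity in NF-kappaB signalling; chromosome 11, 58579111-58621042, plus strand) stood at 162, 163 and 146 CPM in shNT and 146, 150 and 150 CPM in shPRKCN libraries. ZFP91 also overlapped, with a log2 fold change of −0.08 (SE 0.039, 95% interval −0.16 to 0.0016, adjusted p = 0.093). Without shNT library 3, again the lowest shNT library, it was −0.13 with an adjusted p of 0.0060. Both genes share exonic bases on their own strand with another annotated gene. These are AC021078.1 for CSNK1A1 (37.4% of its exonic bases) and the readthrough gene ZFP91-CNTF for ZFP91 (32.3%). Neither AC021078.1 nor ZFP91-CNTF was listed in the counts table. The counts of CSNK1A1 and ZFP91 are uncertain to the extent that such reads were split or dropped.

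Per length, the members ranged from 0.0894 to 78.7 FPKM. In shNT cells the order of mean FPKM was DDB1 (78.7), RBX1 (52.5), CSNK1A1 (31.4), IKZF3 (27.6), ZFP91 (26.9), CUL4B (14.3), CUL4A (11.1), IKZF1 (10.3), CRBN (9.47) and IKZF2 (0.0894). All neighbours in this order were separated in every library except IKZF3 and ZFP91, whose libraries overlapped. In shPRKCN cells IKZF3 (32.4 FPKM) passed CSNK1A1 (31.1 FPKM) and CUL4A passed CUL4B, the other places were the same, and no neighbours overlapped. CRBN was thus the least abundant subunit transcript of the ligase in both groups on this scale. The deposited FPKM divide the counts of IKZF1 by a length of 18789 bases, more than its longest coding GENCODE transcript of 6302 bases. Divided by the longest coding transcript of each gene instead, IKZF1 came to 30.7 ± 1.26 FPKM in shNT cells and overlapped ZFP91 (29.8 ± 1.82), its next neighbour in that order. On the same scale CRBN (16.5 ± 0.483 FPKM) was above CUL4A (15.1 ± 0.332 FPKM) in shNT cells. The place of these members in the order therefore depends on the length used, and the relative differences between groups do not.

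Around the members, the rest of the ligase machinery was examined in lists of genes with the same roles. Of 23 tested neddylation and COP9 signalosome genes, which switch cullins on and off, 5 were higher and 4 lower by adjusted p (9 in all, a smaller share than the 54.2% of all tested genes), and 1, DCUN1D4, was called by both limits (4.35%, against 16.7% of all tested genes). DCUN1D4, a co-ligase for attaching NEDD8 to cullins, fell from 25.2 ± 0.830 to 14.5 ± 0.717 CPM (log2 fold change −0.79, SE 0.073, adjusted p = 4.2e-15). Of 7 tested enzymes that pass ubiquitin to the ligase, 3 were higher and 2 lower by adjusted p (26.5% and 27.8% of all tested genes) and none met both limits. Among these the smallest adjusted p belonged to UBE2D1 (11.7 ± 0.970 to 17.2 ± 1.50 CPM, log2 fold change 0.56, adjusted p = 1.1e-07), and UBE2D2 was the most abundant at 73.2 FPKM in shNT cells (log2 fold change −0.11, adjusted p = 0.0088). Of 7 other cullins and RING proteins, 1 was higher by adjusted p (RNF7, the RBX1 paralog, log2 fold change 0.23, adjusted p = 6.8e-04) and 1 was lower, against 26.5% and 27.8% of all tested genes. The most abundant, CUL1, had a log2 fold change of 0.02 (adjusted p = 0.68).

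Other substrate receptors compete with cereblon for DDB1. Of 23 tested receptors and associated factors, 8 were higher and 6 lower by adjusted p (26.5% and 27.8% of all tested genes), 4 met both limits (17.4%, against 16.7% of all tested genes), and the median log2 fold change was 0.09. DCAF7 fell from 161 ± 7.06 to 81.6 ± 1.13 CPM (log2 fold change −0.98, SE 0.040, adjusted p = 4.5e-32). DTL, the receptor that destroys replication licensing factors during DNA synthesis, fell from 77.2 ± 3.71 to 40.7 ± 1.32 CPM (log2 fold change −0.92, SE 0.049, adjusted p = 3.4e-26). DDB2, the receptor for ultraviolet DNA damage, fell from 39.5 ± 1.09 to 23.7 ± 0.994 CPM (log2 fold change −0.74, SE 0.059, adjusted p = 1.2e-17). DCAF4 rose from 8.87 ± 1.20 to 14.2 ± 0.487 CPM (log2 fold change 0.68, SE 0.099, adjusted p = 1.5e-08). The share called in this list was thus close to that of all genes.

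Of 16 other reported neosubstrates, 13 were tested, of which 2 were higher and 5 lower by adjusted p. These 7 of 13 are a share close to the 54.2% of all tested genes. GSPT1, a translation termination factor and the target of newer cereblon drugs, fell from 226 ± 2.77 to 196 ± 3.62 CPM (log2 fold change −0.21, adjusted p = 8.6e-07). ZMYM2, a zinc finger protein, was the single gene of the list past both limits (7.69%, against 16.7% of all tested genes). It fell from 81.2 ± 1.60 to 47.3 ± 1.22 CPM (log2 fold change −0.78, SE 0.047, adjusted p = 1.4e-23). SALL4, ZBTB16 and TP63 were under the filter on low counts. Both other Ikaros family genes missed the adjusted p limit: IKZF5 had a log2 fold change of 0.12 (adjusted p = 0.096) and IKZF4 of −0.00020 (adjusted p = 0.999).

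Of 16 tested genes of the NuRD complex and other corepressors that Ikaros proteins recruit to DNA, 6 were higher and 5 lower by adjusted p (26.5% and 27.8% of all tested genes), and 2 met both limits (12.5%, against 16.7% of all tested genes). Past both limits, MBD2, a methyl-DNA binding subunit, fell from 129 ± 4.47 to 83.2 ± 2.23 CPM (log2 fold change −0.63, SE 0.041, adjusted p = 7.5e-22), and CHD3, a remodelling ATPase, fell from 8.69 ± 0.894 to 3.99 ± 0.516 CPM (log2 fold change −1.12, SE 0.13, adjusted p = 2.3e-11). IRF4 and MYC are the transcription factors that fall when Ikaros and Aiolos are degraded in myeloma cells. Here IRF4 fell from 624 ± 12.5 to 173 ± 3.19 CPM (log2 fold change −1.85, adjusted p = 5.7e-52), whereas MYC was slightly higher at 547 ± 7.77 and 594 ± 11.1 CPM (log2 fold change 0.12, adjusted p = 0.0014). These values are RNA only, and the paper reports that PRKCN knockdown in MM.1S cells lowered MYC (c-MYC) at post-transcriptional levels. A relation between the RNA levels of IRF4 and MYC and those of IKZF1 and IKZF3 was not tested.

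The genes whose pattern over the 6 libraries was nearest to that of CRBN, among 11658 candidates (tested, mean count 50 or more), were RBM12, ELMO2 and ARID1A, at Euclidean distances of 0.018, 0.021 and 0.027 on the centred log2 CPM scale. The nearest to IKZF1 were PSMD1, ZZEF1 and CSTF2T (0.035, 0.038 and 0.039). The nearest to IKZF3 were EIF4G3, ECD and SLC5A6 (0.026, 0.032 and 0.038). By construction this distance picks genes with a similar log2 fold change. It was −0.0086 to 0.0048 for the genes near CRBN, 0.096 to 0.12 near IKZF1 and 0.20 to 0.22 near IKZF3. The choice of 3 names for each gene is a description with no test, and shared regulation was not tested.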

How the data were processed

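Raw counts per gene and FPKM were deposited by the authors for 6 MM.1S libraries. Per the labels' processing notes, the submitters used FastQC, HISAT2 and StringTie with GRCh38.p14; versions, the counter's settings, the annotation and strandedness are not given in the sources used here. The FPKM follow from the counts, the library total and 1 whole-number length per gene (largest relative deviation 7.89e-07), so both tables hold the same measurement. Depth was 35625564 to 37730003 counts a library, and a member with few counts, such as IKZF2, has the wider interval.

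Groups came from the treatment labels. After filterByExpr and TMM scaling, the quasi-likelihood test of edgeR 4.0.16 under R 4.3.3 was run on 13971 genes, with Benjamini-Hochberg adjustment over all of them. The limits (0.05 on the adjusted p, 0.58 on the absolute log2 fold change) are those of the study, which used DESeq2. The study reported more genes under these limits than were called here (2334 with edgeR, 2258 with DESeq2), so its gene set was not reproduced. Standard errors are the log2 fold change divided by the square root of F. The fitting step was tested on simulated data. FPKM ratios and orders are descriptions. Libraries of a group differed by a chi-square of 3.38 to 4.80 per degree of freedom, so none repeated another, against 63.8 to 70.2 between groups.

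The members and lists were chosen with earlier results of these data known. All members are named; of other lists, genes past both limits, or else the gene with the smallest adjusted p and the most abundant; GSPT1, SALL4, ZBTB16, TP63, CSNK1E and the markers CD3D, CD3E and HBB were added. Alternatives were other scalings, filters, DESeq2 1.42.0, limma 3.58.1 on FPKM with a pseudocount of 1 or 0.1 before log2, glmTreat, a replicate block and leaving out each library. Loci and coding sequences came from GENCODE release 29 on GRCh38.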

Additional observations from a re-analysis of the deposited data

How the results depend on the processing

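No member met both limits under any of the 17 alternatives, and 5 had an adjusted p under 0.05 under each of the 16 that do not test against the fold limit. Leaving out shNT library 3 exchanged IKZF1 (log2 fold change 0.076, adjusted p = 0.093) for ZFP91 (−0.13, adjusted p = 0.0060). The sign of the CRBN change was not fixed: against −0.0021 it was 0.00033 with RLE scaling, 0.0058 with upper-quartile scaling, 0.017 with library-size scaling, 0.0041 with no filter, 0.0018 with DESeq2, 0.016 with limma on log2(FPKM + 1), with or without a minimum of 1 FPKM, and 0.017 with log2(FPKM + 0.1), and it ran from −0.023 to 0.023 when single libraries were left out. CUL4A ran from 0.49 to 0.54 over its alternatives. IKZF2 ran from −0.59 to −0.02 and gave no value with the minimum of 1 FPKM. Of all genes, 2334 were called, against 968 with limma on log2(FPKM + 1), 945 with the FPKM minimum added, and 1160 with glmTreat, which tests against the fold limit itself. The pseudocount of 1 shrinks changes of low genes by construction: on that scale DCAF4 was at 0.51 and CHD3 at −0.46, inside the fold limit. Replicate numbers did not pair the samples (correlations −0.088, −0.026 and −0.044), and a replicate block called 2317 genes and changed no member's call. Depth limits IKZF2, whose interval holds changes past the fold limit.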

Other observations

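Proteins that cereblon binds without a drug, or whose enzyme activity it affects, were given by a list of 6 tested genes, of which 1 was higher and 3 lower by adjusted p (edgeR, adjusted over all tested genes, of which 26.5% were higher and 27.8% lower) and none met both limits. GLUL, the glutamine synthetase that cereblon marks when glutamine is plentiful, rose from 92.4 ± 1.93 to 124 ± 4.45 CPM (log2 fold change 0.42, SE 0.041, adjusted p = 3.7e-14). BSG, a chaperone partner of lactate transporters, was the most abundant of the list at 302 FPKM in shNT and 299 FPKM in shPRKCN cells (log2 fold change −0.03, adjusted p = 0.39). MEIS2, a homeobox factor, lay at the fold limit with a log2 fold change of −0.58 (SE 0.12, adjusted p = 6.2e-05), and was named after its values were seen.

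The casein kinase 1 paralogs of CSNK1A1 were higher by adjusted p in 4 of 5 tested genes (26.5% of all tested genes), none past both limits. A difference between this list and CSNK1A1 was not tested. CSNK1G2 had both the smallest adjusted p and the highest level, 155 ± 3.15 and 180 ± 6.49 CPM (log2 fold change 0.21, SE 0.037, adjusted p = 1.5e-06). CSNK1E counts varied widely within both groups, at 10, 153 and 166 in shNT and 261, 231 and 28 in shPRKCN libraries, and its log2 fold change of 0.64 (SE 0.33, adjusted p = 0.098) missed the limit.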
